A study of Homo sapiens with 12 samples.

Results

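Keratins and claudins were followed in pancreatic neuroendocrine tumor cells of the lines QGP-1 and BON-1 with and without the silencing of MUC1-C. The members are the genes of the count tables whose symbol is KRT with a number, with or without a final A, B or C, or CLDN with a number. Of the 28008 genes in the tables, 79 matched, of which 55 are keratins and 24 are claudins. The 26 with a mean of 10 or more counts over the libraries of a line are described, namely 14 keratins (8 of type I and 6 of type II) and 12 claudins. In QGP-1 cells 20 members reached that mean and in BON-1 cells 18 did, with 12 reaching it in both, while 15 of the 79 had 0 counts in all 12 libraries. Just inside the limit were CLDN5 (10.7 counts), KRT14 (11.5) and KRT5 (15.5), and just outside it were CLDN9 (8), KRT16 (5.17) and KRT86 (4.33).

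QGP-1 and BON-1 are established lines from human pancreatic neuroendocrine tumors. Both carry tet-MUC1shRNA, a hairpin against MUC1 that doxycycline (DOX) switches on, and vehicle is 0.1% DMSO. For each line, poly(A) RNA was sequenced from 3 cultures kept in vehicle and 3 kept in DOX at 500 ng/mL over 7 days, giving 12 libraries of 38224144 to 50525926 counts in QGP-1 and 15981954 to 28484324 in BON-1. Each line was transduced with 1 hairpin and no control-hairpin libraries were analysed, so that DOX itself and the loss of MUC1 cannot be told apart, and the lines grew in different media, so that line and medium cannot be told apart between them.

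Keratins are the intermediate filament proteins of epithelial cells. A type I keratin pairs with a type II keratin, and the filament of a simple epithelium, such as pancreatic duct, is built mainly from KRT8 and KRT18, with KRT7 and KRT19 added in ductal cells, whereas KRT5 and KRT14 mark the basal layer of stratified epithelia. Claudins are membrane proteins of the tight junction, where their type sets whether the space between cells is sealed or lets particular ions through. They bind scaffold proteins such as TJP1 and TJP3, and keratin filaments end on desmosomes.

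MUC1 itself, on the minus strand of chromosome 1 (GRCh38, chr1:155185824-155192915), is the target of the hairpin. Levels are given in CPM, read counts scaled by library size and TMM over all 12 libraries, with mean ± SD of 3 libraries. In QGP-1 cells MUC1 was at 7.34, 5.997 and 5.92 CPM with vehicle and at 0.709, 1.10 and 0.790 CPM with DOX. The BON-1 libraries held 19.9, 20.01 and 14.96 CPM with vehicle and 1.42, 2.55 and 3.81 CPM with DOX. In both lines every DOX library lay below every vehicle library. The neuroendocrine identity of the lines was checked on 12 markers, of which 11 had a mean of at least 1 CPM in each line, with NEUROD1 at 0 in QGP-1 and NCAM1 at 0.0584 ± 0.0540 CPM in BON-1 with vehicle. The granule protein SCG2 was at 2880 ± 310 CPM in QGP-1 and 2601 ± 124 CPM in BON-1 with vehicle, while CHGA was at 153 ± 5.94 CPM in QGP-1 and 7813 ± 1380 CPM in BON-1.

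A small set of keratins made up nearly all keratin RNA. Because levels of different genes can be compared only per length, the share of each gene in the summed keratin or claudin TPM of its library was used here, from the TPM values of the authors. KRT18 held 44.2% ± 1.18 of keratin TPM in QGP-1 with vehicle and 47.5% ± 0.678 in BON-1 with vehicle. Its partner KRT8 held 36.8% ± 1.49 in QGP-1 and 32.0% ± 0.680 in BON-1. Together KRT8 and KRT18 were 81.0% ± 0.505 of keratin TPM in QGP-1 and 79.5% ± 0.0755 in BON-1. The keratin that came next differed. It was KRT7, the type II keratin of ducts, in QGP-1, where it held 14.4% ± 0.449, and this gene held 6.69% ± 0.353 in BON-1. In BON-1 it was KRT19, the type I keratin of ducts, with 12.7% ± 0.520, and this gene held 2.38% ± 0.177 in QGP-1. The 4 keratins of simple epithelium summed to 97.7% ± 0.331 in QGP-1 and 98.9% ± 0.139 in BON-1, and the ratio of type I to type II keratin TPM was 0.947 ± 0.0511 in QGP-1 and 1.58 ± 0.0600 in BON-1.

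**Figure D1:**
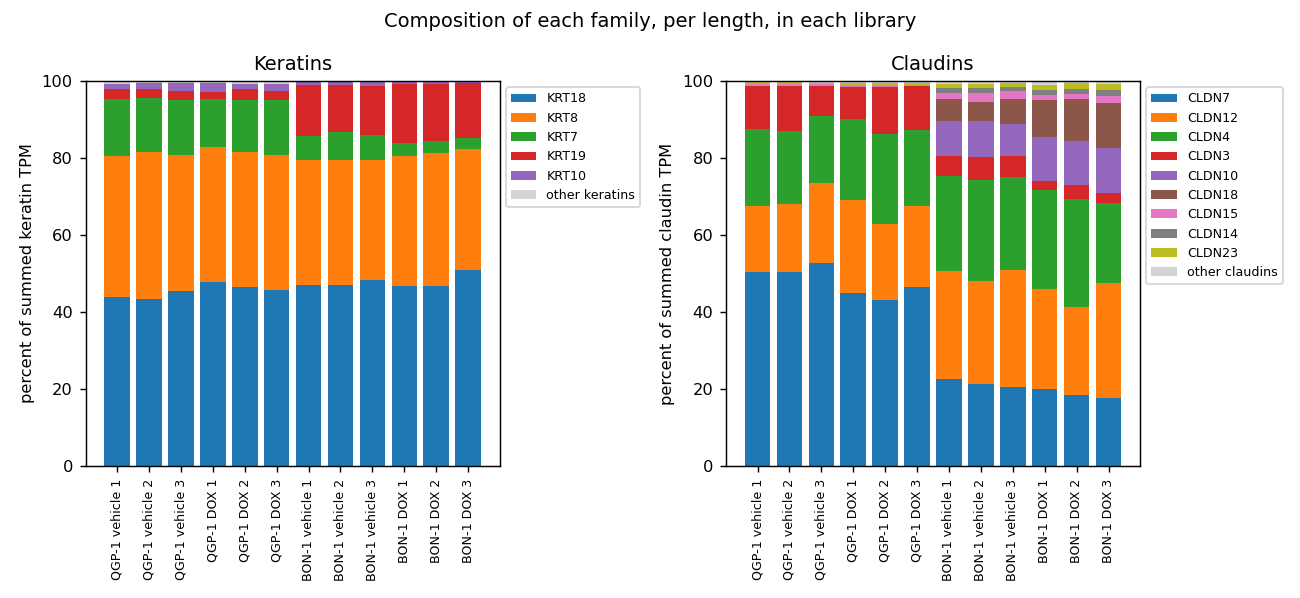
Stacked bars give the percent of the summed keratin TPM (left panel) and claudin TPM (right panel) held by each gene in each of the 12 libraries. KRT8 and KRT18 fill 79.4% to 82.8% of every keratin bar, KRT7 comes next in the QGP-1 bars and KRT19 in the BON-1 bars, and CLDN10 and CLDN18 are visible in the BON-1 bars alone.

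Among the claudins, QGP-1 cells were led by CLDN7, a claudin of many simple epithelia, with 51.2% ± 1.37 of claudin TPM with vehicle. CLDN4, a sealing claudin, followed with 18.8% ± 1.14 and CLDN12 with 18.4% ± 1.93, and these 2 shares did not differ beyond their spread. In BON-1 cells with vehicle CLDN12 held 28.3% ± 1.91, CLDN4 24.9% ± 1.12 and CLDN7 21.6% ± 1.03. Thus the same 3 claudins were the most abundant in both lines, in another order and with a smaller sum in BON-1 (74.8% ± 0.532) than in QGP-1 (88.5% ± 2.23). CLDN3 held 10.2% ± 2.23 in QGP-1 and 5.55% ± 0.368 in BON-1. CLDN10 and CLDN18 made up 14.7% ± 0.354 of claudin TPM in BON-1 and 0.00365% ± 0.00397 in QGP-1. No test was made across the TPM tables, since those of the lines were made separately.

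Whether a line has a member at all was asked of the vehicle libraries. Of all 15835 genes tested between the lines by edgeR's quasi-likelihood test, 77.5% were called at an adjusted p below 0.05 (39.4% higher and 38% lower in BON-1), and of the 12 members that reached the limit of 10 counts in both lines, 4 were higher and 5 lower in BON-1 (5 and 3 with library size in place of TMM). The median log2 difference of these 12, BON-1 minus QGP-1, was −0.07, against 0.03 for all genes. Most genes were thus called in this contrast, members or not. KRT10, CLDN11 and CLDN23 did not pass the test. Of the 26 members, 8 (KRT4, KRT5, KRT6A, KRT13, KRT14, KRT15, KRT17 and CLDN1) reached the limit through QGP-1 alone and 6 (KRT20, KRT80, CLDN5, CLDN10, CLDN14 and CLDN18) through BON-1 alone, so that a difference between the lines is in part built into their choice, and the values of these 14 members are a description with no test.

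KRT19 (GRCh38, chr17:41523617-41528308, minus strand) had the widest gap between the lines among the 4 abundant keratins. Its level was 19.8, 19.3 and 15.1 CPM in the QGP-1 vehicle libraries and 198, 163 and 163 CPM in those of BON-1. Every BON-1 library lay far above every QGP-1 library, 10.1-fold in the fit (log2 difference 3.33, SE 0.10, adjusted p = 8.11e-17). KRT18 was at 380.4, 347 and 332 CPM in QGP-1 and at 744, 662 and 651 CPM in BON-1. KRT8 was at 507, 486 and 407 CPM in QGP-1 and at 808, 727 and 669 CPM in BON-1. Both partners were higher in BON-1 without overlap, KRT18 by 1.02 (SE 0.08, adjusted p = 1.82e-10) and KRT8 by 0.71 (SE 0.09, adjusted p = 2.89e-07) on the log2 scale. KRT7 went the other way by little, with 146, 126 and 119 CPM in QGP-1 and 115, 113 and 100.2 CPM in BON-1 (log2 difference −0.19, SE 0.08, adjusted p = 0.0426). That call was lost with library size in place of TMM (adjusted p = 0.213) and without QGP-1 vehicle replicate 1 (0.286) or BON-1 vehicle replicate 3 (0.152), and in the fit of all 12 libraries (0.062).

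Among the keratins of low level, KRT80, a type II keratin, was at 0.482, 0.119 and 0.274 CPM in QGP-1 and at 3.13, 4.33 and 4.95 CPM in BON-1, without overlap. KRT20, a keratin of intestinal epithelium, had 3 counts over the QGP-1 vehicle libraries (0.0211 ± 0.0365 CPM) and 71 over those of BON-1 (0.971 ± 0.246 CPM). Several keratins of stratified epithelia had counts in QGP-1 and few or none in BON-1, but not all did, since KRT10 was at 20.1 ± 2.72 CPM in QGP-1 and 19.9 ± 0.643 CPM in BON-1 with vehicle (log2 difference 0.04, adjusted p = 0.744) and KRT15 had 58 and 16 counts. KRT6A had 172 counts in QGP-1 vehicle and 0 in BON-1 vehicle, at least 32.2-fold lower in BON-1 when 3 counts over the group are taken as the limit. By the same limit KRT17 (88 counts against 0) was at least 16.5-fold lower, KRT5 (64 against 0) at least 11.99-fold and KRT14 (19 against 0) at least 3.56-fold lower in BON-1. KRT4 had 132 counts in QGP-1 vehicle (1.05 ± 0.325 CPM) and 1 in BON-1 vehicle, and KRT13 had 118 (0.949 ± 0.388 CPM) and 2. The levels of KRT6A, KRT17, KRT5, KRT14, KRT4 and KRT13 are low, none of them above 2 CPM in a QGP-1 vehicle library, and the 4 squamous keratinocyte markers fixed for comparison (IVL, LOR, FLG and SPRR1A) summed to 0.193 ± 0.0908 CPM in QGP-1 with vehicle, with LOR at 0, and to 0 in BON-1. Bulk RNA cannot tell fewer cells of a kind from less RNA per cell, so a few cells with much KRT6A and many with little would look the same.

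**Figure D2:**
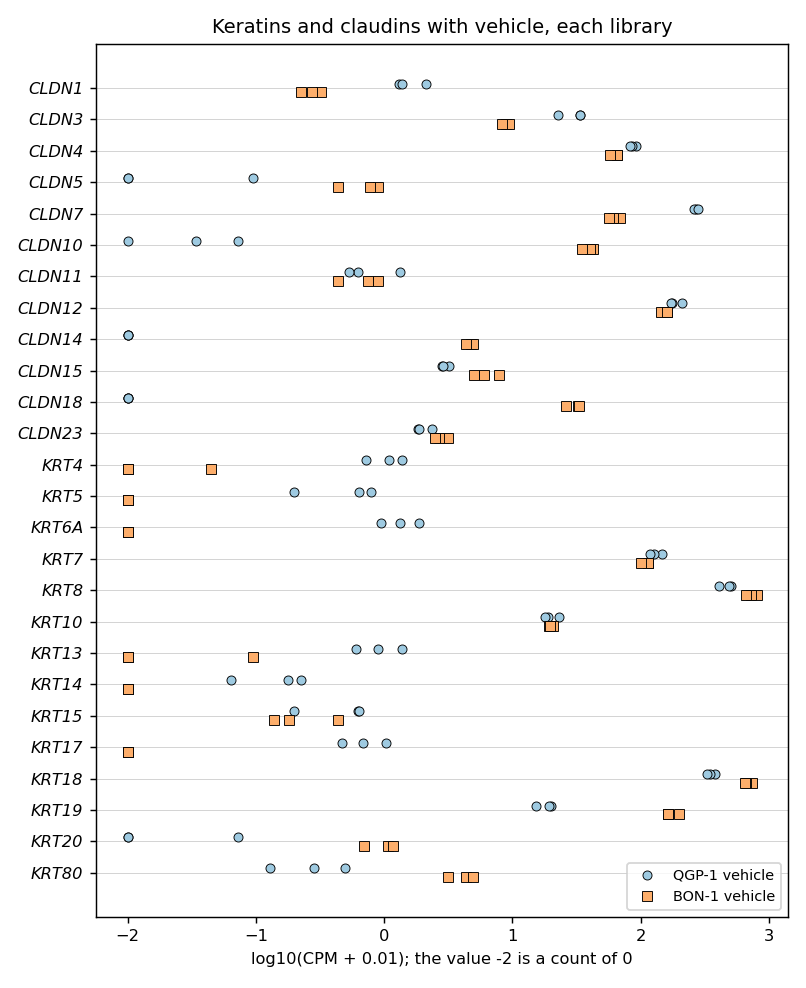
Each point is 1 vehicle library, placed at log10(CPM + 0.01) for each of the 26 members, so that the value -2 is a count of 0. KRT8, KRT18 and KRT7 differ between the lines by at most 2.02-fold, KRT19 by 10.1-fold, and CLDN18 and CLDN14 sit at 0 in all 3 QGP-1 libraries.

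Among the claudins, CLDN18 had 0 counts in the 3 QGP-1 vehicle libraries and was at 32.3, 26.2 and 33.1 CPM in those of BON-1, from 2174 counts. It was thus at least 1289-fold higher in BON-1. CLDN18 is the claudin of stomach and lung epithelium, and its gene has separate start sites for the isoforms of these tissues, which the gene counts do not separate. CLDN10, an ion-selective pore-forming claudin, had 4 counts in QGP-1 vehicle and was at 42.2, 40.3 and 35.2 CPM in BON-1. CLDN14 had 0 counts in QGP-1 vehicle and was at 4.74, 4.88 and 4.36 CPM in BON-1, at least 198-fold higher. All 3 were thus at or near 0 in QGP-1 and detected in every library of BON-1. CLDN10 shares exon positions with DZIP1 on the other strand, and CLDN14 with CLDN14-AS1, and whether the counting used strand is not given in the sources used here. CLDN15, a claudin that lets cations pass, was 2.21-fold higher in BON-1 (adjusted p = 5.79e-05), and CLDN5, the claudin of endothelium, had 4 counts in QGP-1 vehicle and 52 in BON-1 vehicle.

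In the other direction, CLDN7 was at 268, 258 and 281 CPM in QGP-1 and at 68.5, 60.7 and 56.4 CPM in BON-1. The groups lay far apart, with a 4.17-fold lower level in BON-1 (log2 difference −2.06, SE 0.08, adjusted p = 1.64e-15). CLDN3 was at 33.9, 33.6 and 22.8 CPM in QGP-1 and at 8.87, 9.47 and 8.36 CPM in BON-1, 3.24-fold lower (log2 difference −1.70, SE 0.14, adjusted p = 1.25e-09). No BON-1 library of CLDN7 or CLDN3 reached a QGP-1 library. CLDN1, at 1.29, 1.36 and 2.11 CPM in QGP-1 and 0.309, 0.214 and 0.266 CPM in BON-1, is one of the members chosen through QGP-1 alone. CLDN4 (log2 difference −0.41, SE 0.08, adjusted p = 0.000114) and CLDN12 (−0.20, SE 0.08, adjusted p = 0.0301) had the smallest differences among the claudins called that reached the limit in both lines, and the call for CLDN12 was lost with library size (adjusted p = 0.126), without BON-1 vehicle replicate 2 (0.0973) and without QGP-1 vehicle replicate 3 (0.163).

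With DOX in BON-1 cells, KRT8, KRT18 and KRT19 rose and KRT7 and KRT80 fell, while KRT10 and KRT20 did not pass the test. Of all genes tested in BON-1, 35.3% were called (17% higher and 18.3% lower), and of the 16 members tested 5 were higher and 3 lower, among them 3 of 7 keratins higher and 2 lower. The members' median log2 fold change was −0.08, against −0.01 for all 14625 genes.

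KRT8 was at 808, 727 and 669 CPM with vehicle and at 1141, 1288 and 946 CPM with DOX in BON-1. KRT18 was at 744, 662 and 651 CPM with vehicle and at 992, 1103 and 964 CPM with DOX. KRT19 was at 198, 163 and 163 CPM with vehicle and at 309, 335 and 257 CPM with DOX. For each of the 3, the lowest DOX library lay above the highest vehicle library. KRT8 rose 1.54-fold (log2 fold change 0.62, SE 0.10, adjusted p = 9.27e-06). KRT18 rose 1.49-fold (0.58, SE 0.08, adjusted p = 3.31e-06). KRT19 rose 1.73-fold (0.79, SE 0.09, adjusted p = 1.00e-07). Against these, KRT7 (chr12:52233243-52255853, plus strand) was at 115, 113 and 100.2 CPM with vehicle and at 82.1, 83.2 and 61.6 CPM with DOX. The groups did not overlap and the level fell by 30.8% (log2 fold change −0.53, SE 0.10, adjusted p = 6.95e-05). KRT80 was at 3.13, 4.33 and 4.95 CPM with vehicle and at 2.89, 2.30 and 1.66 CPM with DOX. Its groups did not overlap either (log2 fold change −0.85, SE 0.28, adjusted p = 0.0197), but the call was lost without vehicle replicate 2 (adjusted p = 0.0657), vehicle replicate 3 (0.0978) or DOX replicate 3 (0.0807) and in the fit of all 12 libraries (0.155).

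In share of keratin TPM, KRT19 moved from 12.7% ± 0.520 to 14.9% ± 0.538 with DOX in BON-1, and KRT7 from 6.69% ± 0.353 to 3.13% ± 0.273. The TPM ratio of KRT19 to KRT7 was 2.06, 1.72 and 1.94 with vehicle and 4.51, 4.81 and 4.99 with DOX, so that no library overlapped. The share of KRT8 and KRT18 was 79.5% ± 0.0755 with vehicle and 81.4% ± 0.863 with DOX. With 3 libraries against 3, an exact permutation test cannot give a two-sided p below 0.1, and no test was made on shares. Summed over the family, keratin levels were 1730 ± 144 CPM with vehicle and 2543 ± 295 CPM with DOX.

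In QGP-1 cells no keratin passed the test. Of all genes tested there, 35% were called (17.3% higher and 17.7% lower), and of the 19 members tested 0 were higher and 2, both claudins, were lower. DESeq2 likewise called 0 members higher, and 0 of those higher had an unadjusted p below 0.05 by edgeR. The members' median log2 fold change was −0.11, against −0.01 for all 15089 genes. Of the 11 keratins tested, edgeR called 0, with 2 at an unadjusted p below 0.05, and DESeq2 called 2, both lower. These 2 were KRT8 and KRT7. KRT8 was at 507, 486 and 407 CPM with vehicle and at 344, 441 and 416 CPM with DOX. Of the DOX libraries, 2 lay within the vehicle range and the change was not called (log2 fold change −0.24, SE 0.09, adjusted p = 0.0626 by edgeR and 0.0445 by DESeq2). KRT7 was at 146, 126 and 119 CPM with vehicle and at 88.8, 121 and 119 CPM with DOX. Here 1 of the DOX libraries lay within the vehicle range and another just below it (−0.27, SE 0.10, adjusted p = 0.0555 by edgeR and 0.0380 by DESeq2). By edgeR both were called without vehicle replicate 3 (adjusted p = 0.00732 for KRT8 and 0.0237 for KRT7) or DOX replicate 2 (0.0385 and 0.0379), and KRT7 also without DOX replicate 3 (0.0484). For both genes the fits that left out 1 library gave log2 fold changes from −0.34 to −0.15. KRT18 (380.4, 347 and 332 CPM against 297, 367 and 339.7 CPM) had a log2 fold change of −0.09 (SE 0.08, adjusted p = 0.392), with overlapping groups. KRT19 (19.8, 19.3 and 15.1 CPM against 10.2, 20.7 and 17.2 CPM) had one of −0.20 (SE 0.19, adjusted p = 0.44), and its highest and its lowest library were both DOX libraries. The other 7 keratins tested in QGP-1 had log2 fold changes from −1.13 (KRT5, SE 0.82, adjusted p = 0.316) to 0.30 (KRT17, SE 0.43, adjusted p = 0.628), none of them called. Leaving out 1 library moved KRT5 between −1.88 and −0.50 and KRT17 between 0.05 and 0.65. Among the 7, KRT10, a type I keratin of the upper epidermis here at 19.1, 18.04 and 23.2 CPM with vehicle and 21.9, 16.2 and 20.4 CPM with DOX, had a log2 fold change of −0.05 (SE 0.13, adjusted p = 0.809). KRT14 was too low to be tested, with 2, 9 and 8 counts with vehicle and 9, 19 and 22 with DOX.

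**Figure D3:**
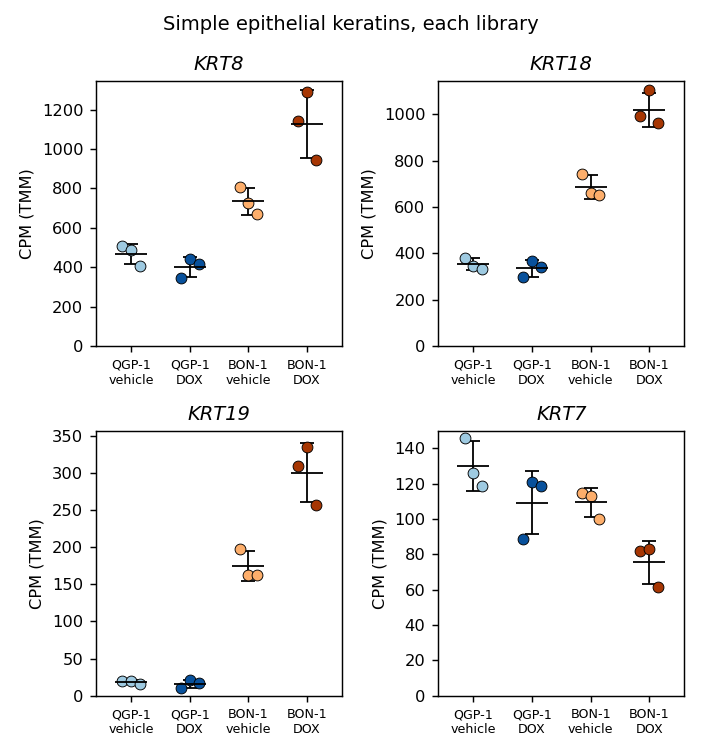
Points are the 3 libraries of each group, in CPM (TMM) on an axis from 0, for the keratins named in their panels, with the group mean and SD. In BON-1 the DOX points of KRT8, KRT18 and KRT19 lie above those of vehicle and the DOX points of KRT7 below, while the QGP-1 groups of these 4 keratins overlap.

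The response of the simple epithelial keratins therefore had to be compared between the lines in 1 model. Across all 16598 genes tested for the interaction of line and DOX, 16.7% were called (8.8% with a more positive change in BON-1 and 7.92% with a more negative one). Of the 12 members that reached the limit of 10 counts in both lines, 3 were called, all more positive in BON-1. The other members had a mean below 10 counts in 1 line, some with 0 in all its libraries, and their responses could not be compared in this way. The members called were KRT8 (difference of log2 fold changes 0.87, SE 0.15, adjusted p = 0.000248), KRT18 (0.68, SE 0.12, adjusted p = 0.000296) and KRT19 (1.00, SE 0.21, adjusted p = 0.00201). KRT7, lower with DOX in BON-1, did not pass this test (−0.25, SE 0.15, adjusted p = 0.293), but did without QGP-1 DOX replicate 1 (−0.42, adjusted p = 0.0435). Leaving out 1 library gave KRT7 differences from −0.42 to −0.14. None of the 12 was called more negative in BON-1 by edgeR, with 1 at an unadjusted p below 0.05, and DESeq2 called 1, which was CLDN3 (edgeR −0.71, SE 0.26, adjusted p = 0.0645; DESeq2 −0.72, adjusted p = 0.0416). By edgeR CLDN3 was called with no filter on low counts (adjusted p = 0.00475) and without QGP-1 vehicle replicate 1 (0.0456), QGP-1 DOX replicate 1 (0.00644) or BON-1 DOX replicate 2 (0.0207). KRT8 and KRT18 are neighbors on chromosome 12 whose annotated spans share 1006 bases on opposite strands (GRCh38, chr12:52897191-52949860 and chr12:52948855-52952906), and they have 51 and 68 named pseudogenes in GENCODE 44. How the counting treated reads that fit several places is not given in the sources used here, so that their counts are uncertain to that extent.

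**Figure D4:**
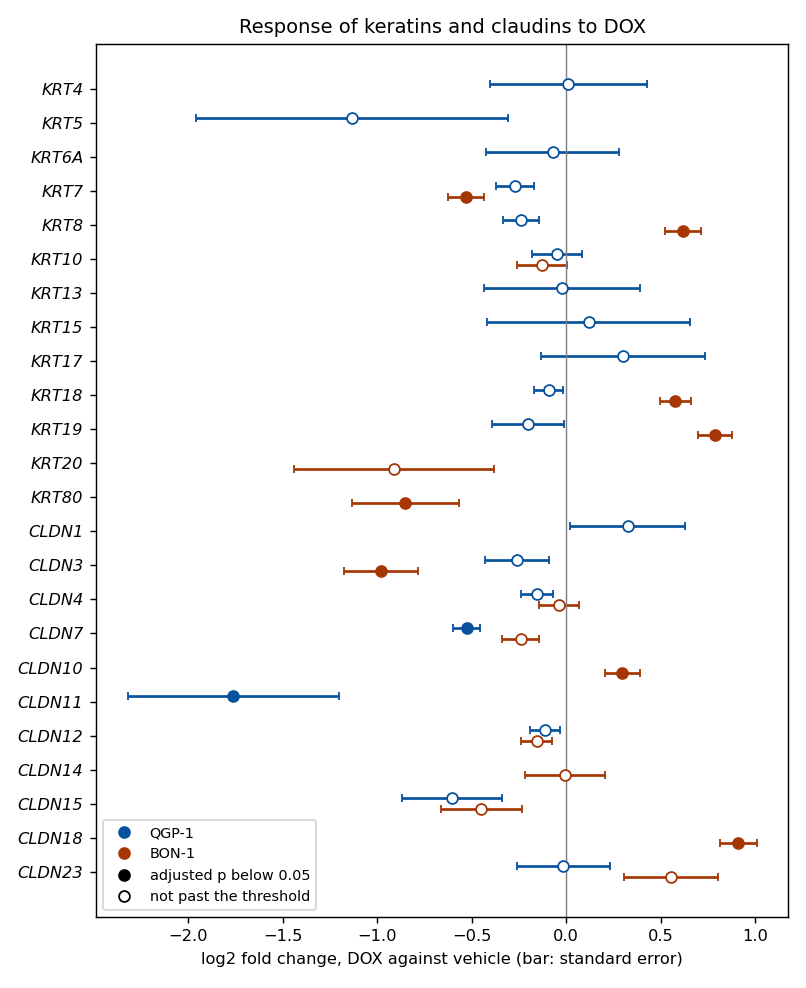
Log2 fold change with DOX against vehicle for each member tested in each line, with bars for 1 standard error and filled points for an adjusted p below 0.05 by edgeR. KRT19, KRT8 and KRT18 lie to the right for BON-1 (0.58 to 0.79) and left of 0 for QGP-1 (−0.24 to −0.09), and CLDN18 has the most positive change (0.91).

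With DOX, CLDN18 and CLDN10 rose and CLDN3 fell in BON-1, and CLDN7 and CLDN11 fell in QGP-1. CLDN10 and CLDN18 were too low to be tested for DOX in QGP-1, and CLDN11 in BON-1, so that the responses of CLDN10 and CLDN18 could not be compared between the lines. Those of CLDN3, CLDN7 and CLDN11 are not shown to differ, since in the interaction, where 16.7% of all genes were called, edgeR called 0 of the 7 claudins that reached the limit in both lines (2 at an unadjusted p below 0.05, CLDN3 and CLDN7), and DESeq2 called CLDN3. Promoter sequence is shown for the claudin that rose most with DOX in BON-1 and for the neighboring pair CLDN3 and CLDN4, of which CLDN3 fell there and CLDN4 did not pass the test. Each run is the 250 bases before an annotated start, 5′ to 3′ on the strand of the gene (RefSeq, GRCh38.p14). Matches are in capitals to the GC box (GGGCGG), the TATA box (TATAAA), the CCAAT box (CCAAT), AP-1 (TGANTCA) and the string AACCNGGTT, searched on both strands. The genes CLDN3 and CLDN4 lie 60725 bases apart on opposite strands of chromosome 7 (the sequences shown are at chr7:73770271-73770520 and chr7:73830746-73830995), and CLDN18 has 2 start sites on the plus strand of chromosome 3 (chr3:137998566-137998815 and chr3:138009915-138010164).
CLDN3: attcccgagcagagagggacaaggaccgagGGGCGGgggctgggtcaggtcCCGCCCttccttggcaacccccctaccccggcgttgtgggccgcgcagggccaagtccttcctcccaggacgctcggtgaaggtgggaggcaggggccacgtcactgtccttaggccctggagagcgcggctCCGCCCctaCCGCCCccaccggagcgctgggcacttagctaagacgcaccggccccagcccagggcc
CLDN4: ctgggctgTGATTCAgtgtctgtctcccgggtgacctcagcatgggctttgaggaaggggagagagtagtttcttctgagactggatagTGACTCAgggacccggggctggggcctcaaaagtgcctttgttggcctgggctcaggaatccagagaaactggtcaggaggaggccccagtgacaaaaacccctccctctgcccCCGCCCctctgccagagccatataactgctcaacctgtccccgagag
CLDN18, start site 1: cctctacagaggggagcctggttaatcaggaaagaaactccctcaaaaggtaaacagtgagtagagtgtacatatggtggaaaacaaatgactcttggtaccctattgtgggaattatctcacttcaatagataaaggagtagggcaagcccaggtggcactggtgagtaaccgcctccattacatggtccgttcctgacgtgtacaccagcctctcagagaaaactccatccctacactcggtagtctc
CLDN18, start site 2: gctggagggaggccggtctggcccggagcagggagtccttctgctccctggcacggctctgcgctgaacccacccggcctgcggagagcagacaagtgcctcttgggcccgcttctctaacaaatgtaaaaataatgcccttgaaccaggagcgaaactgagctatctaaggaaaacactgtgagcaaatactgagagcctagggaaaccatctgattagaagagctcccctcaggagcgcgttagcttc
The CLDN3 sequence holds 71.6% G and C with 4 GC boxes, and the CLDN4 sequence 58.8% with 1 GC box and 2 AP-1 matches. The CLDN18 sequences hold 47.6% and 56.4% G and C and none of the motifs searched. Of 35116 RefSeq promoter sequences, 42.6% hold a GC box, 10.7% a TATA box, 32.0% a CCAAT box, 6.57% an AP-1 match and 0.202% the string AACCNGGTT. Of the 26 members 15 had an entry, with 21 start sites, of which 8 held a GC box, 8 a CCAAT box, 1 a TATA box, 2 an AP-1 match and 0 the string AACCNGGTT. A match is a description of the letters and not of a bound site.

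CLDN18 was at 32.3, 26.2 and 33.1 CPM with vehicle and at 55.3, 57.9 and 58.4 CPM with DOX in BON-1. The DOX libraries lay close together and all above the vehicle libraries, a rise of 1.88-fold (log2 fold change 0.91, SE 0.10, adjusted p = 2.93e-08). In QGP-1 with DOX it had 2 counts in 1 library and 0 in the others. CLDN10 was at 42.2, 40.3 and 35.2 CPM with vehicle and at 50.4, 48.6 and 45.4 CPM with DOX in BON-1, a rise of 1.23-fold without overlap (log2 fold change 0.30, SE 0.09, adjusted p = 0.0142). That call was lost without vehicle replicate 3 (adjusted p = 0.116) or DOX replicate 1 (0.0718) and in the fit of all 12 libraries (0.0578). CLDN10 and CLDN18 together went from 14.7% ± 0.354 to 22.3% ± 1.23 of claudin TPM in BON-1.

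CLDN3 was at 8.87, 9.47 and 8.36 CPM with vehicle and at 4.06, 5.70 and 3.71 CPM with DOX in BON-1. Every DOX library lay below every vehicle library, with a fall of 49.2% (log2 fold change −0.98, SE 0.20, adjusted p = 0.000266). In QGP-1 CLDN3 was at 33.9, 33.6 and 22.8 CPM with vehicle and at 18.3, 29.6 and 28.7 CPM with DOX, with overlap (−0.26, SE 0.17, adjusted p = 0.253). Without vehicle replicate 3 the change was called (−0.44, adjusted p = 0.0384). Over the fits that left out 1 library, the CLDN3 value in QGP-1 ran from −0.44 to −0.08. Its neighbor CLDN4 was at 65.6, 65.2 and 57.5 CPM with vehicle and at 67.1, 68.8 and 47.4 CPM with DOX in BON-1 (−0.04, SE 0.11, adjusted p = 0.821). In QGP-1 CLDN4 was at 92.8, 85.6 and 82.2 CPM with vehicle and at 70.9, 88.5 and 77.6 CPM with DOX (−0.15, adjusted p = 0.184). The groups of CLDN4 overlapped in both lines.

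CLDN7 was at 268, 258 and 281 CPM with vehicle and at 173, 185 and 208 CPM with DOX in QGP-1. The groups stood clear of each other and the level fell by 30.5% (log2 fold change −0.53, SE 0.07, adjusted p = 7.34e-05). In BON-1 CLDN7 was at 68.5, 60.7 and 56.4 CPM with vehicle and at 59.7, 51.7 and 45.5 CPM with DOX. There the groups overlapped and the change was not called (−0.24, SE 0.10, adjusted p = 0.0569). It was called with the replicate number as a block (adjusted p = 0.0368), with library size in place of TMM (0.0262), with no filter on low counts (0.0229), with at least 10 counts in every library (0.0378) and without vehicle replicate 3 (0.0327) or DOX replicate 1 (0.0137), each time lower with DOX. The difference of the CLDN7 response between the lines was not called (0.29, SE 0.13, adjusted p = 0.118). CLDN7 lies on chromosome 17 (chr17:7259903-7263213, minus strand) and shares exon positions with ELP5 on the other strand. CLDN11 had 23, 22 and 63 counts with vehicle and 6, 14 and 10 with DOX in QGP-1 (log2 fold change −1.76, SE 0.56, adjusted p = 0.0245). It rests on vehicle replicate 3 in part, since without it the value was −1.24 (adjusted p = 0.171), and the call was also lost without DOX replicate 1 (0.0624) or DOX replicate 3 (0.069). CLDN11 was too low to be tested in BON-1, where it had 26, 10 and 14 counts with vehicle and 3, 6 and 4 with DOX. In CPM it was lower with DOX there without overlap (0.689 ± 0.238 with vehicle and 0.227 ± 0.0639 with DOX), a description with no test.

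CLDN12, like CLDN7 and CLDN4 an abundant claudin in both lines, was at 175, 173 and 211 CPM with vehicle and at 177, 163 and 179.9 CPM with DOX in QGP-1. In BON-1 it was at 162, 145 and 159.6 CPM with vehicle and at 147, 122 and 149 CPM with DOX. The groups overlapped in both lines and neither change was called (−0.11, adjusted p = 0.318 in QGP-1, and −0.16, adjusted p = 0.147 in BON-1). In BON-1 the change was called without DOX replicate 3 (−0.22, adjusted p = 0.0469). Over the fits that left out 1 library, CLDN12 in BON-1 ran from −0.22 to −0.08. Its exons overlap those of GTPBP10 and CDK14 on the same strand. CLDN14, at 4.74, 4.88 and 4.36 CPM with vehicle and 4.68, 4.55 and 4.69 CPM with DOX in BON-1, had a log2 fold change of −0.00 (SE 0.21, adjusted p = 0.991). CLDN15 had lower values with DOX in both lines without a call (−0.60, adjusted p = 0.0921 in QGP-1, and −0.45, adjusted p = 0.105 in BON-1). In QGP-1 CLDN15 was called without DOX replicate 2 (−0.83, adjusted p = 0.049), and the fits that left out 1 library ran from −0.83 to −0.35. CLDN23 went from 2.77 ± 0.346 to 4.09 ± 0.0762 CPM in BON-1 without overlap (0.56, adjusted p = 0.0825), a change that limma on the TPM values called (0.46, adjusted p = 0.013). Summed claudin levels were 580 ± 23.3 CPM with vehicle and 473 ± 27.7 CPM with DOX in QGP-1, and 375 ± 17.5 and 377 ± 17.7 CPM in BON-1. Most of the lower sum with DOX in QGP-1 was CLDN7, at 269 ± 11.1 CPM with vehicle and 189 ± 17.9 CPM with DOX.

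**Figure D5:**
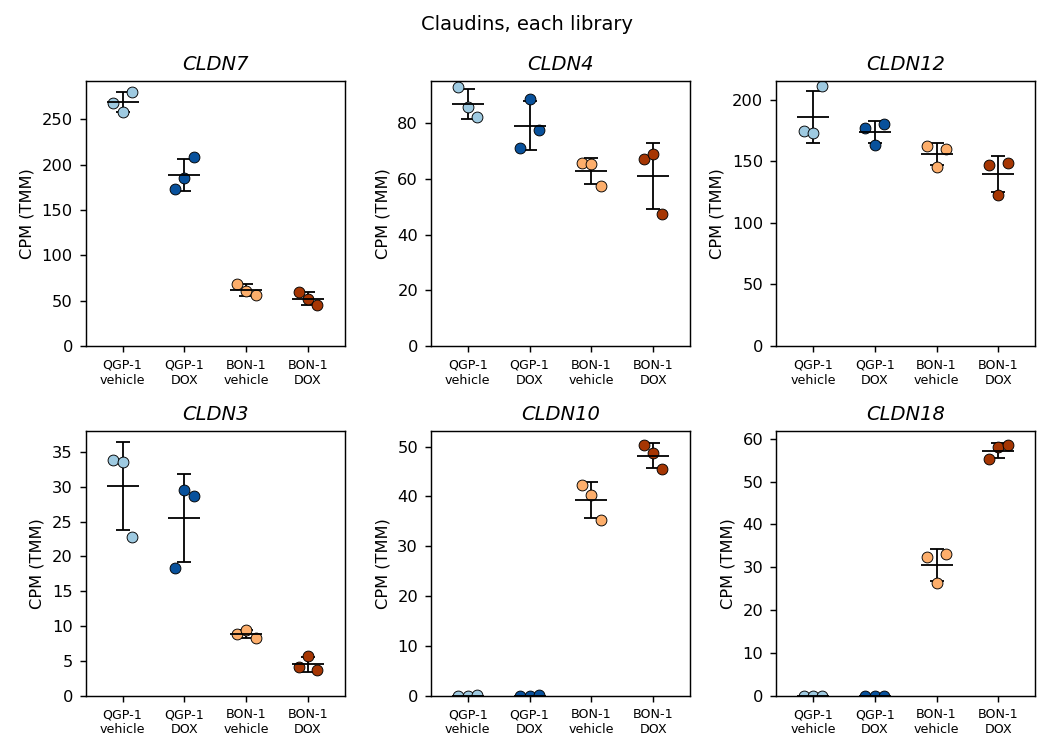
Points are the 3 libraries of each group, in CPM (TMM) on an axis from 0, for the claudins named in their panels, with the group mean and SD. The DOX points of CLDN7 lie below those of vehicle in QGP-1, while in BON-1 those of CLDN18 and CLDN10 lie above and those of CLDN3 below.

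The genes that claudins and keratins work with were counted from lists, beside 35% of all genes called with DOX in QGP-1 (17.3% higher and 17.7% lower) and 35.3% in BON-1 (17% and 18.3%). Of 22 tight junction partners tested, 9 were higher and 3 lower with DOX in QGP-1, and 8 were higher and 5 lower in BON-1. TJP1, the scaffold that binds claudin tails, rose in both lines (0.45 in QGP-1 and 0.35 in BON-1), as did AFDN (0.33 and 0.45) and MAGI1 (0.41 and 0.57), whereas TJP3 fell in both (−0.37 and −0.71). Occludin (OCLN), a tight junction membrane protein, rose in QGP-1 (0.59) and fell in BON-1 (−0.29), while cingulin (CGN), which links the junction to actin, fell in QGP-1 (−0.51) and rose in BON-1 (0.40). JAM3 (0.52 and −0.55) and AMOTL1 (0.37 and −0.39) changed as OCLN did. AMOTL2 had the largest called change of the list in BON-1 (1.09).

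Of the desmosome and keratin linker genes, 5 of 15 tested rose and 2 fell in QGP-1, and 3 of 16 rose and 3 fell in BON-1. Desmoglein 2 (DSG2), a desmosomal cadherin, fell in both lines (−0.69 and −0.29), PKP4 rose in both (0.28 and 0.23), and desmocollin 2 (DSC2) rose in QGP-1 (0.18) and fell in BON-1 (−0.27). The plakin EVPL had the largest called change in BON-1 (−1.04), where its fellow plakin PPL rose (0.97). Of the intermediate filament genes other than keratins, 0 of 7 tested rose and 1, the lamin LMNA (−0.55), fell in QGP-1, while 3 of 10 rose and 4 fell in BON-1, with the largest called change in NES (−0.91). VIM, the filament of mesenchymal cells, had 0 CPM in each QGP-1 vehicle library and 699 ± 122 CPM with vehicle and 690.1 ± 60.8 CPM with DOX in BON-1 (−0.01, adjusted p = 0.935), so that keratins and vimentin were both abundant in BON-1.

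Of the epithelial transcription and splicing factors, 2 of 16 tested rose and 6 fell in QGP-1, and 5 of 13 rose and 2 fell in BON-1. The intestinal factor CDX2 (−0.74 in QGP-1 and −1.27 in BON-1) and GRHL1, a grainyhead factor (−0.63 and −0.66), fell in both lines, although the call for GRHL1 in BON-1 (adjusted p = 0.0429) was lost with DESeq2 (0.0575), and KLF5 rose in both (0.23 and 0.56). DESeq2 called 4 genes of this list higher in QGP-1. The largest called changes were TFAP2C in QGP-1 (−1.61) and EHF in BON-1 (1.52). Among 6 epithelial surface genes tested, 0 rose and 1 fell in QGP-1 and 1 rose and 1 fell in BON-1, with the protease ST14 lower in both (−0.23 and −0.33) and its inhibitor SPINT1 higher in BON-1 (0.30). In QGP-1, DESeq2 also called 0 genes of the intermediate filament and surface lists higher, and at an unadjusted p below 0.05 edgeR had 0 and 1.

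Markers of other cell types were measured beside these changes. The 12 neuroendocrine markers summed to 7021 ± 501 CPM with vehicle and 8103 ± 271 CPM with DOX in QGP-1, and to 13861 ± 1736 and 9908 ± 234 CPM in BON-1. The BON-1 sum with vehicle was led by CHGA, which fell (−1.46), and not every marker fell with it. SCG2 had 79677, 58345 and 48172 counts with vehicle there and 57342, 70941 and 72483 with DOX. As a share of library counts, SCG2 was higher in every DOX library of BON-1 than in every vehicle library. The 6 fibroblast markers summed to 5.32 ± 0.809 CPM with vehicle and 10.4 ± 0.673 CPM with DOX in BON-1, almost all of it LUM, the 1 fibroblast marker above 1 CPM, with THY1 at 0. The 4 leukocyte markers summed to 24.4 ± 1.51 and 48.7 ± 2.09 CPM in BON-1, almost all of it CD68, the 1 leukocyte marker above 1 CPM. In QGP-1 the fibroblast markers summed to 2.80 ± 0.904 and 1.26 ± 0.123 CPM and the leukocyte markers to 1.07 ± 0.464 and 1.45 ± 0.525 CPM, with CD3E at 0. The 3 endothelial markers stayed near 1 CPM in BON-1 (1.05 ± 0.232 and 1.11 ± 0.269 CPM) and were at 0.744 ± 0.276 and 0.903 ± 0.352 CPM in QGP-1. The 4 pancreatic acinar markers, of which PRSS1 alone had a mean above 1 CPM, summed to 125 ± 37.2 and 35.5 ± 6.22 CPM in QGP-1 and to 38.3 ± 5.31 and 22.4 ± 3.56 CPM in BON-1. The squamous keratinocyte markers were at 0.108 ± 0.144 CPM in QGP-1 with DOX and at 0 in BON-1. The part of these marker changes in the keratin and claudin changes was not tested.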

How the data were processed

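Total RNA of the 12 cultures was made into stranded, poly(A)-selected libraries, and reads were aligned with STAR to GRCh38, per the labels and the submitters' processing notes. The authors deposited, for each line, raw counts per gene and TPM values made from them. How reads were counted (strand, multiple matches) is not given in the sources used here. In the deposited TPM tables RN7SK, RN7SL1 and RN7SL2 held a mean of 76.3% of the total in QGP-1 and 62.2% in BON-1, so TPM served for shares within a family.

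Tests on the raw counts used edgeR 4.0.16 (R 4.3.3; default low-count filter, TMM, quasi-likelihood test, Benjamini-Hochberg over all genes tested, adjusted p below 0.05, no minimum fold change). Each line was fitted alone for DOX, vehicle libraries alone between lines, and all 12 libraries for the interaction. SE is the log2 fold change divided by the square root of F. A group at 0 was set to a limit of 3 counts over the group, for counting error only. Replicates are cultures of 1 group and differed by more than sampling noise (chi-square per gene 5.92 to 29.7). Code was tested on simulated data.

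The value in every library is given for members called in the interaction, for the largest called rise and fall of each family with DOX in each line, for the 3 most abundant members of each family and for the 3 largest called differences each way between lines at a mean log2 CPM of at least 0. For members that reached the count limit through 1 line alone, that call between lines served only to choose which values are shown. KRT20, CLDN23 and other members are named among the 26. List genes are named where called in both lines or largest, and some list genes are counted but not reported here by name. PPL, VIM, SPINT1, SCG2 and CHGA were chosen after their values were seen. Members, lists and tests were chosen with earlier results of these data known. Alternatives were DESeq2 1.42.0, library size for TMM, no low-count filter, at least 10 counts per library, a block for the replicate number, 1 fit of all 12 libraries, limma 3.58.1 on centred log2(TPM + 1), CPM for shares, and leaving out each library.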

Additional observations from a re-analysis of the deposited data

Results flagged for a closer look

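The response to DOX of 3 keratins differed between the lines by a test of the difference itself, the interaction of line and DOX in edgeR's quasi-likelihood test with Benjamini-Hochberg adjustment. That test called 3 of the 12 members that reached a mean of 10 counts in both lines, beside 16.7% of all 16598 genes. The differences, BON-1 minus QGP-1 on the log2 scale, were 0.87 for KRT8, 0.68 for KRT18 and 1.00 for KRT19. Each was higher with DOX in 3 of 3 BON-1 libraries than in every BON-1 vehicle library, and the QGP-1 groups overlapped. These calls held under every alternative of the interaction fit that was run, and in the fits that left out 1 library.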

How the results depend on the processing

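In QGP-1 the members called lower with DOX were 2, against 4 with DESeq2 and 4 with no filter on low counts (KRT7 and KRT8 added) and 1 with limma on TPM, which tested 9 members against 19. With at least 10 counts in every library KRT7 was called there as well (adjusted p = 0.0492). Leaving out 1 library gave 1 to 5 lower and 0 to 1 higher in QGP-1 (KRT14 without DOX replicate 1), 4 to 5 higher and 2 to 4 lower in BON-1, and 3 more positive and 0 to 2 more negative in the interaction (CLDN3 and KRT7). Between the lines, the 12 members that reached the limit in both were those tested with at least 10 counts in every library, with 4 higher and 5 lower as before. They were 4 and 4 to 5 without 1 library (KRT7 or CLDN12 lost), and with library size 5 and 3 (both lost and CLDN23 added), while the other members' choice fixes part of their difference. The interaction had 1 more negative member with DESeq2 and 1 with no filter, CLDN3 in both. As shares of CPM, not per length, KRT8 and KRT18 were 82.1% and 84.4% in BON-1 with vehicle and DOX and 82.4% and 83.0% in QGP-1, and CLDN4, CLDN7 and CLDN12 were 66.9% in BON-1 with DOX and 93.4% and 93.2% in QGP-1. With the replicate block, 0 members were higher and 2 lower in QGP-1, 5 higher and 4 lower in BON-1 (CLDN7 added), 4 and 5 of those 12 between the lines and 3 and 0 in the interaction. Same-numbered libraries did not deviate together in every pair (r of −0.15, 0.27 and 0.20 in QGP-1 and −0.11, −0.08 and 0.17 in BON-1), so the numbers were not taken as pairs. No called log2 difference changed sign under any alternative run, while some that were not called did, such as KRT19 in QGP-1 with DOX (−0.20, and 0.04 without DOX replicate 1) and CLDN4 in BON-1 with DOX (−0.04, and 0.10 without DOX replicate 3). The cause of the moves was not tested. Some alternatives used fewer genes or samples than the main fit. The part of sequencing depth in the results for members with few counts, such as CLDN11, KRT14 and KRT5, was not tested.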
